A study of Mus musculus with 115 samples.

Results

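The genes described here present antigen on the cell surface, and were measured in liver and inguinal fat of gonadectomised mice given a hormone or a blank capsule. They were chosen by name: every probe whose symbol begins with H2-, the mouse symbol of the major histocompatibility complex (MHC), and the probes of Cd74, B2m, Tap1, Tap2, Tapbp, Psmb8, Psmb9 and Psmb10. The rule found 46 genes with 58 probes, of 18120 symbols and 25697 probes in all. Of the probes, 56 matched by symbol and 2 are those of Cd74, which the array lists as Ii. H2-D1, a classical class I gene, is not analysed here. Tested probes were those detected (detection p under 0.01) on a number of arrays no smaller than the smallest group of the tissue. This left 37 member probes of 29 genes of the 11317 probes tested in liver, and 41 of 33 genes of the 14636 tested in fat. The genes fall into 27 class I heavy chains, 7 genes of class I loading and the immunoproteasome, 10 class II genes, and 2 genes that carry an H2 symbol but encode no MHC molecule (H2-Bf, which is complement factor B, and H2-Ke6, which is Hsd17b8).

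The mice were FCG mice on a C57BL/6J background, a cross that separates gonad type from sex chromosomes. In it Sry, the testis-determining gene, is deleted from the Y chromosome (written XY-) and some mice carry it as a transgene on an autosome. XX and XY- mice develop ovaries and are called the ovary line here. XXSry and XY-Sry mice carry the transgene, develop testes and are called the testis line. All mice, the blank controls included, had their gonads removed at 75 days of age and received a capsule at once, which was blank (B) or held testosterone (T, given in the labels as 5 mM, which for a capsule may be its length in mm) or 17beta-estradiol (E, 50 µg). Liver and inguinal fat were collected after 3 weeks. A difference between the lines in these mice therefore lies between animals that had ovaries or testes until 75 days and that do or do not carry the Sry transgene. The labels do not name the tissues in which the transgene is active, and whether any animal gave both tissues is not stated.

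Class I molecules consist of a heavy chain and beta-2 microglobulin (B2m) and carry peptides from inside the cell on nearly all cell types. The peptides are cut by the immunoproteasome (Psmb8, Psmb9, Psmb10), moved by the transporter Tap1-Tap2 and loaded with the help of tapasin (Tapbp). Class II molecules are made mainly by dendritic cells, B cells and macrophages, which in liver include the Kupffer cells. Their chains assemble on the invariant chain Cd74, and H2-DM exchanges the remnant of Cd74 for an antigen peptide.

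Liver was read on 60 arrays, 10 for each line and hormone with 5 per genotype, and fat on 55. In fat the ovary line had 8 B, 9 T and 10 E arrays and the testis line 9 B, 10 T and 9 E. The median raw intensity per array was 124 to 159 (liver) and 130 to 230 (fat), and 31.8% to 41% and 40.3% to 49% of the probes were detected. Levels are log2 of background-corrected, quantile-normalised intensity, on which a difference of 1 is a 2-fold difference, and differences of dim probes are understated. In liver, XY-Sry T replicate 5 carried Xist at 6.63, within the 6.35 to 7.4 of the arrays labelled XX, and not the Y-linked Eif2s3y. Liver XY- E replicate 5 had the testosterone-induced Hsd3b5 at 12.26, against 4.5 to 11.19 on the other E arrays and 11.15 to 12.95 on the T arrays. Both were kept under their labels, and the liver counts are also given without them. The fat array XX E replicate 1 has label fields that disagree on its treatment. Its Greb1, an estrogen-induced gene, was 9.22, within the 7.17 to 9.3 of the other E arrays. It was kept as E, and without it the estradiol calls of H2-Q10 and Tapbp in fat, described below, were kept.

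Promoters of 4 genes are shown because the class II genes moved together in liver while the classical class I gene H2-K1 was not called. MHC promoters are known for an X box and a Y box, through which the coactivators CIITA (class II) and NLRC5 (class I) act. The sequences are the 150 bases before the start of the transcript, 5′ to 3′ on the strand of the gene, from RefSeq on GRCm38.p6. Capitals mark ATTGG, the core of the Y box, on either strand (CCAAT is ATTGG on the other strand), and ACNGATG, used here for a part of the X box. The rest of the X box was not searched for and is not marked.
H2-Eb1, chr17:34305717-34305866, plus strand: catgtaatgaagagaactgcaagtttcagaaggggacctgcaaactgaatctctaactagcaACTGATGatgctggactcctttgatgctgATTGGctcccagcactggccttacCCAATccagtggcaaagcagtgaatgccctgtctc
H2-DMb1, chr17:34153041-34153190, plus strand: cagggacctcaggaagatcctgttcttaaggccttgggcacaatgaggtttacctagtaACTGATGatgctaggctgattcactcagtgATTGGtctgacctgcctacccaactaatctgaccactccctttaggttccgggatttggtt
H2-Aa, chr17:34287824-34287973, minus strand: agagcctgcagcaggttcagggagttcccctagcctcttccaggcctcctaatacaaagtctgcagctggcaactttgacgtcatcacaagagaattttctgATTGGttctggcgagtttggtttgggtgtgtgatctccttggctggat
H2-K1, chr17:34000348-34000497, minus strand: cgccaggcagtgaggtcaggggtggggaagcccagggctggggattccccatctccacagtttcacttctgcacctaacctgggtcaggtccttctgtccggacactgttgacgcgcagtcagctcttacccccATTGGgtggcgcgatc

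In H2-Eb1 and H2-DMb1 the ATTGG begins 59 and 61 bases before the start and the ACNGATG 88 and 91 bases before it, so that both promoters hold the motifs in the same order. H2-Aa holds ATTGG 48 bases before its start, and H2-K1 16 bases before it. The ACNGATG of H2-Aa that is counted below lies on the other strand, 232 bases before the start and outside the printed bases. Promoters of 7 of the 10 class II genes were found, 8 in all. Within 250 bases before the start 7 of the 8 held ATTGG and 5 held both motifs on either strand. Of all 32851 RefSeq promoters 33.8% held ATTGG, 8.31% ACNGATG and 2.77% both. The 19 promoters of 17 class I heavy chains held ATTGG in 17 and both motifs in 8. These matches describe the letters in the window and not binding.

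In liver, class II transcripts were lower under testosterone than under blank, and lower in the testis line than in the ovary line (the plot of liver class II levels). All 10 class II probes tested, of Cd74, H2-Aa, H2-Ab1, H2-Eb1, H2-DMa and H2-DMb1, passed the test in both contrasts. The median difference was -0.78 for testosterone minus blank (-1 to -0.44) and -1.06 for the testis line minus the ovary line (-1.19 to -0.72), against 0 and 0.01 over all 11317 probes. With estradiol none of the 10 passed. In this tissue 19.1% of all probes were called for testosterone (10.9% lower), 3.4% for the gonad line (2.85% lower) and 6.82% for estradiol, at a limma adjusted p under 0.05. RNA of whole tissue was measured, so fewer cells that carry a transcript and less of it per cell cannot be told apart.

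**Figure D1:**
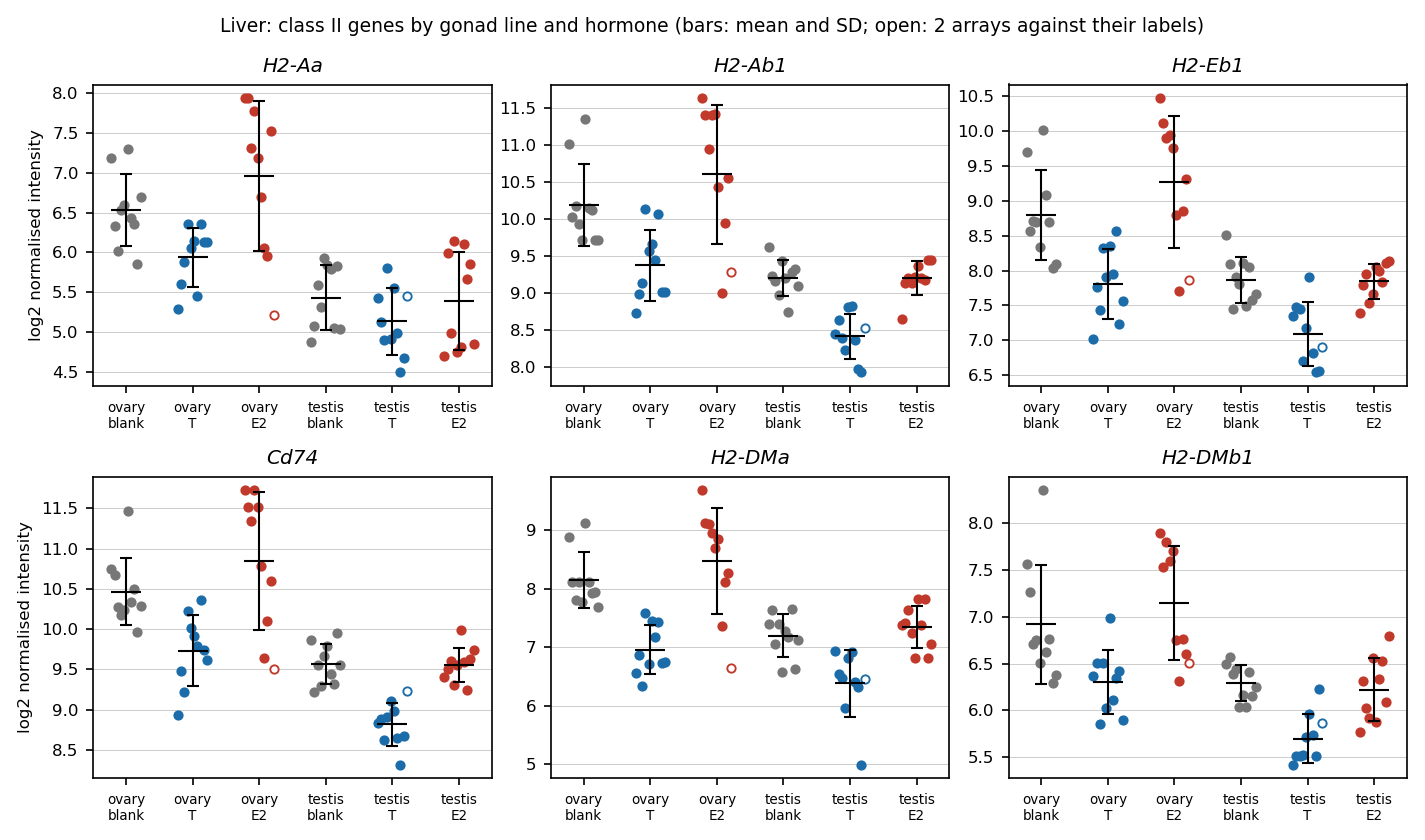
Log2 normalised intensity of the class II genes in liver for ovary-line and testis-line mice under blank (B), testosterone (T) or estradiol (E) capsules, 10 arrays each; points are arrays, bars the mean and SD, open points the 2 arrays that go against their labels. For Cd74 the 10 testis-line blank arrays (9.22 to 9.95) all lie below the 10 ovary-line blank arrays (9.96 to 11.46). The share of all liver probes that separate in this way was not computed.

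Cd74, the invariant chain that guides class II assembly, had log2 levels of 9.96, 10.32 and 11.46 (lowest, median and highest of 10 arrays) in the ovary line under blank and of 8.93, 9.77 and 10.36 under testosterone. The testis-line arrays had 9.22, 9.55 and 9.95 under blank and 8.32, 8.86 and 9.23 under testosterone. All 10 testis-line blank arrays lay below all 10 ovary-line blank arrays, though the nearest arrays, at 9.95 and 9.96, nearly met. Of the testosterone arrays, 7 of 10 in the ovary line and 9 of 10 in the testis line lay below the lowest blank array of their line. The share of all liver probes whose arrays separate in such ways was not computed, here or for the genes below. Cd74 fell by 0.74 with testosterone (SE 0.11, limma adjusted p = 8.35e-07) and was lower in the testis line by a log2 difference of -1.03 (SE 0.09, limma adjusted p = 7.57e-13). Within the lines the testosterone difference of Cd74 was -0.74 in each. Of the 10 class II probes, 9 were called for testosterone within the ovary line and 9 within the testis line, against 7.06% and 9.14% of all probes, with H2-Aa the exception in both.

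H2-Ab1, the beta chain of the I-A molecule, had 9.71, 10.08 and 11.35 in the ovary line under blank and 8.73, 9.29 and 10.14 under testosterone. The testis line had 8.75, 9.22 and 9.62 under blank and 7.93, 8.42 and 8.82 under testosterone. Here too every testis-line blank array lay below every ovary-line blank array, and 8 of 10 testosterone arrays lay below the lowest blank array in each line. The differences were -0.8 for testosterone (SE 0.13, limma adjusted p = 4.39e-06) and -1.12 for the gonad line (SE 0.11, limma adjusted p = 1.15e-11). The 4 probes of H2-Ab1 moved together over the 60 arrays, with a lowest r of 0.92 between them, and the 2 of Cd74 with an r of 0.97.

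H2-Eb1, the beta chain of the I-E molecule, had medians of 8.7 (ovary line, blank), 7.83 (ovary line, testosterone), 7.85 (testis line, blank) and 7.04 (testis line, testosterone). The blank ranges of the lines overlapped (8.04 to 10.01 and 7.45 to 8.51), with 6 of 10 testis-line arrays below the lowest ovary-line array. Its differences were -0.88 for testosterone (limma adjusted p = 7.71e-06) and -1.02 for the gonad line (limma adjusted p = 6.32e-09). H2-Ea, the gene of the alpha chain of I-E, was detected on 0 of 60 liver and 0 of 55 fat arrays. The H2-Eb1 values therefore describe its transcript and not the I-E molecule. H2-Aa, the alpha chain of I-A, was dim and was detected on 26 of 30 ovary-line and 12 of 30 testis-line arrays. Its median was 6.48 in the ovary line under blank and 5.45 in the testis line under blank. Its difference was -1.15 for the gonad line (SE 0.13, limma adjusted p = 1.53e-09) and -0.44 for testosterone (SE 0.16, limma adjusted p = 0.0372). The testosterone call of H2-Aa was lost without any of 14 single arrays, at adjusted p up to 0.0698 over the arrays left out in turn.

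H2-DMa and H2-DMb1, the chains of the peptide exchanger H2-DM, were lower in both contrasts too. H2-DMa had 7.68, 8.02 and 9.13 in the ovary line under blank and 6.33, 6.8 and 7.58 under testosterone, so that all 10 testosterone arrays lay below all 10 blank arrays. The testis-line values were 6.57, 7.22 and 7.66 under blank and 4.99, 6.47 and 6.93 under testosterone, where 7 of 10 lay below. Its testosterone difference was -1 (SE 0.15, limma adjusted p = 1.18e-06), the lowest among the 10 probes, and its gonad line difference -0.89 (limma adjusted p = 6.56e-07). H2-DMb1 had differences of -0.61 (limma adjusted p = 6.28e-05) and -0.72 (limma adjusted p = 8.57e-08).

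Estradiol gave a positive difference at all 10 class II probes (median 0.22, 0.08 to 0.42), and none passed the test (Cd74 0.19, SE 0.11, limma adjusted p = 0.35). With arrays centred on their median instead of quantile normalised, the median over all probes was -0.18 for estradiol, and that of class II 0.01 and of class I -0.07. The testosterone and estradiol contrasts share the blank arrays. In the ovary line the estradiol difference of Cd74 was 0.38 (limma adjusted p = 0.207) and in the testis line -0.01. The test of the difference between the lines did not pass either (-0.38, SE 0.22, limma adjusted p = 0.952). The ovary-line estradiol arrays were spread widely, and by genotype. Cd74 was 11.72, 11.52, 11.34, 11.72 and 11.51 in XX E and 10.78, 9.64, 10.1, 10.6 and 9.51 in XY- E, the last of which is the array that goes against its label. Every XX E array lay above every XY- E array, with both genotypes on the same slides. The mean of the macrophage markers was 7.94 to 8.57 in XX E and 6.96 to 8.1 in XY- E. That split was seen in the values and was not tested, and the share of all probes that separate in this way was not computed. Over all treatments and both lines, XX minus XY gave a class II median of 0.19 with none of the 10 probes called, against 0.186% of all probes.

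The gonad line difference of Cd74 was -0.9 under blank, -0.91 under testosterone and -1.29 under estradiol, and of H2-Ab1 -0.99, -0.97 and -1.4. All 10 class II probes were called under blank, 4 under testosterone and all 10 under estradiol, against 1.75%, 0.212% and 2.44% of all probes. The interactions of gonad line with testosterone and with estradiol called none of the member probes, class I or class II, against 0.124% and 0.0795% of all probes. Each slide carried both gonad lines, and the class II median was lower in the testis line on all 8 slides (-1.47 to -0.71). Blank and testosterone stood together on 3 slides, where it was lower under testosterone each time (-1.27 to -0.62). Blank and estradiol stood together on 2 slides, where the difference was 0.36 and 0.39. With slide as a block 10 of 10 class II probes were called for testosterone and for the gonad line, and 3 for estradiol, all higher. Without the 2 arrays that go against their labels the counts were 10, 10 and 1.

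The 6 class II genes varied as a group over the liver arrays, with r between pairs of genes from 0.72 to 0.97 (median 0.87, 15 pairs, 60 arrays). Between pairs of class I genes r was -0.45 to 0.72 (median 0.11, 210 pairs). These correlations describe arrays that share the RNA of 1 tissue piece and the same contrasts between groups.

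Markers of macrophages and Kupffer cells were also lower in the testis line and, averaged over the lines, with testosterone. In the ovary line the median of their mean level was 7.18 under blank and 6.71 under testosterone. In the testis line it was 6.59 and 6.57, where Cd74 fell by as much as in the ovary line. With testosterone 6 of 16 macrophage and Kupffer cell probes were called, all lower (median -0.27), against 10.9% of all probes. In the testis line 12 of 16 were lower (median -0.54), against 2.85% of all probes. With estradiol 12 of 16 were higher (median 0.53), against 3.55% of all probes, where no class II probe was called. Clec4f, a Kupffer cell receptor, had -0.64 with testosterone, -0.5 in the testis line and 0.42 with estradiol. The summed log2 level of the list ranged over 12.59 to 13.85 (ovary line B), 11.62 to 12.72 (T) and 12.41 to 14.45 (E), and over 11.83 to 12.33, 11.28 to 12.54 and 12.26 to 13.3 in the testis line. Of this list Cd5l was not detected.

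Most probes of B cell, dendritic cell and T cell markers did not pass the detection filter in liver. Of the B cell markers Ms4a1, Cr2 and Pax5 were not detected, and the 1 of 18 probes that was tested (Cd79b) was lower with testosterone (-0.66) and in the testis line (-0.43). Of the dendritic cell markers Itgax, Flt3, Xcr1 and Clec9a were not detected, and the 1 of 7 probes tested (Zbtb46, listed as Btbd4) was lower with testosterone (-0.34). Of the T cell markers 4 of 20 probes were tested, of which Cd3g (-0.74) and Cd3d (-0.46) were lower in the testis line, and Cd4 and Cd8a were not detected. None of the 7 hepatocyte probes was called for the gonad line. Of all liver probes 10.9% were called lower with testosterone and 2.85% lower in the testis line.

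**Figure D2:**
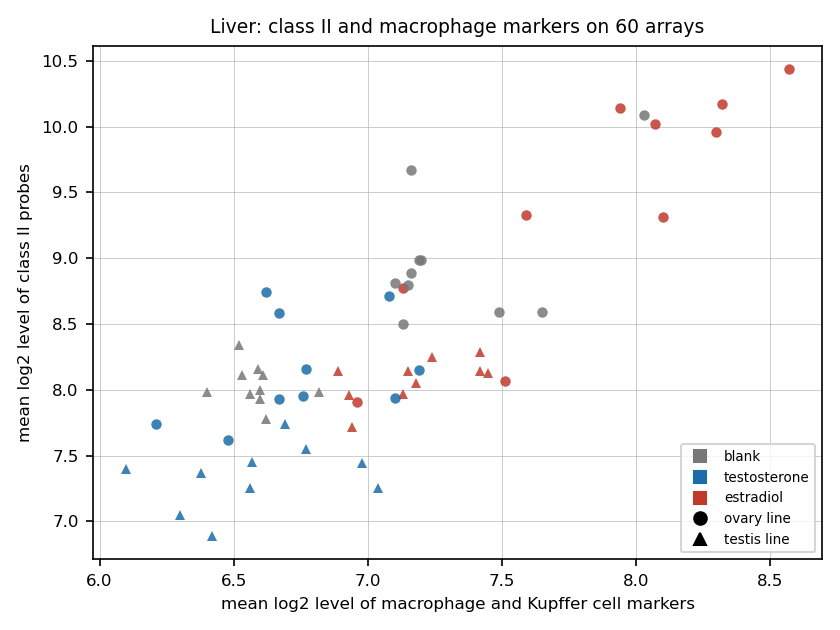
Mean log2 level of the 10 class II probes against the mean log2 level of the macrophage and Kupffer cell markers on the 60 liver arrays, coloured by hormone, with circles for the ovary line and triangles for the testis line. For single class II genes r was between 0.7 and 0.82.

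Over the 60 arrays, r between a class II gene and the macrophage marker mean ran from 0.7 (H2-DMb1) to 0.82 (Cd74), and from 0.64 to 0.77 without the 2 arrays farthest from the median of the markers. After the group means were taken out, r was 0.2 to 0.5 (median 0.37). For B2m r over the 60 arrays was 0.21. The relation was not particular to macrophage markers: with the mean of the few T cell, B cell and lymph node probes tested in liver the class II genes had r of 0.71 to 0.82, with the T cell probes alone 0.69 to 0.73 and with the B cell probe 0.42 to 0.56. Genes and markers share the RNA of each array. With the macrophage marker mean as a covariate, a fit added after the data were seen, 9 of 10 class II probes were called for testosterone (median -0.65) and 7 of 10 for the gonad line (median -0.72). H2-Aa was lost in both (-0.17 and -0.66, limma adjusted p = 0.49 and 0.0758), and H2-DMa for the gonad line (-0.51, limma adjusted p = 0.354), where 1 further probe of Cd74 or H2-Ab1, not the brightest, was lost as well. In that fit 2029 probes were called for testosterone and 31 for the gonad line over the whole array. The part of dendritic cells and B cells in these differences was not tested.

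Class I genes in liver showed fewer and smaller changes. With testosterone 8 of 25 class I probes were called, all lower, but the median of the 25 was -0.07 (-0.58 to 0.44). In the testis line 3 of 25 were called, all lower (median -0.08), and with estradiol 2 of 25, both higher (median 0.07). Of all probes 10.9% were called lower with testosterone, 2.85% lower in the testis line and 3.55% higher with estradiol.

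**Figure D3:**
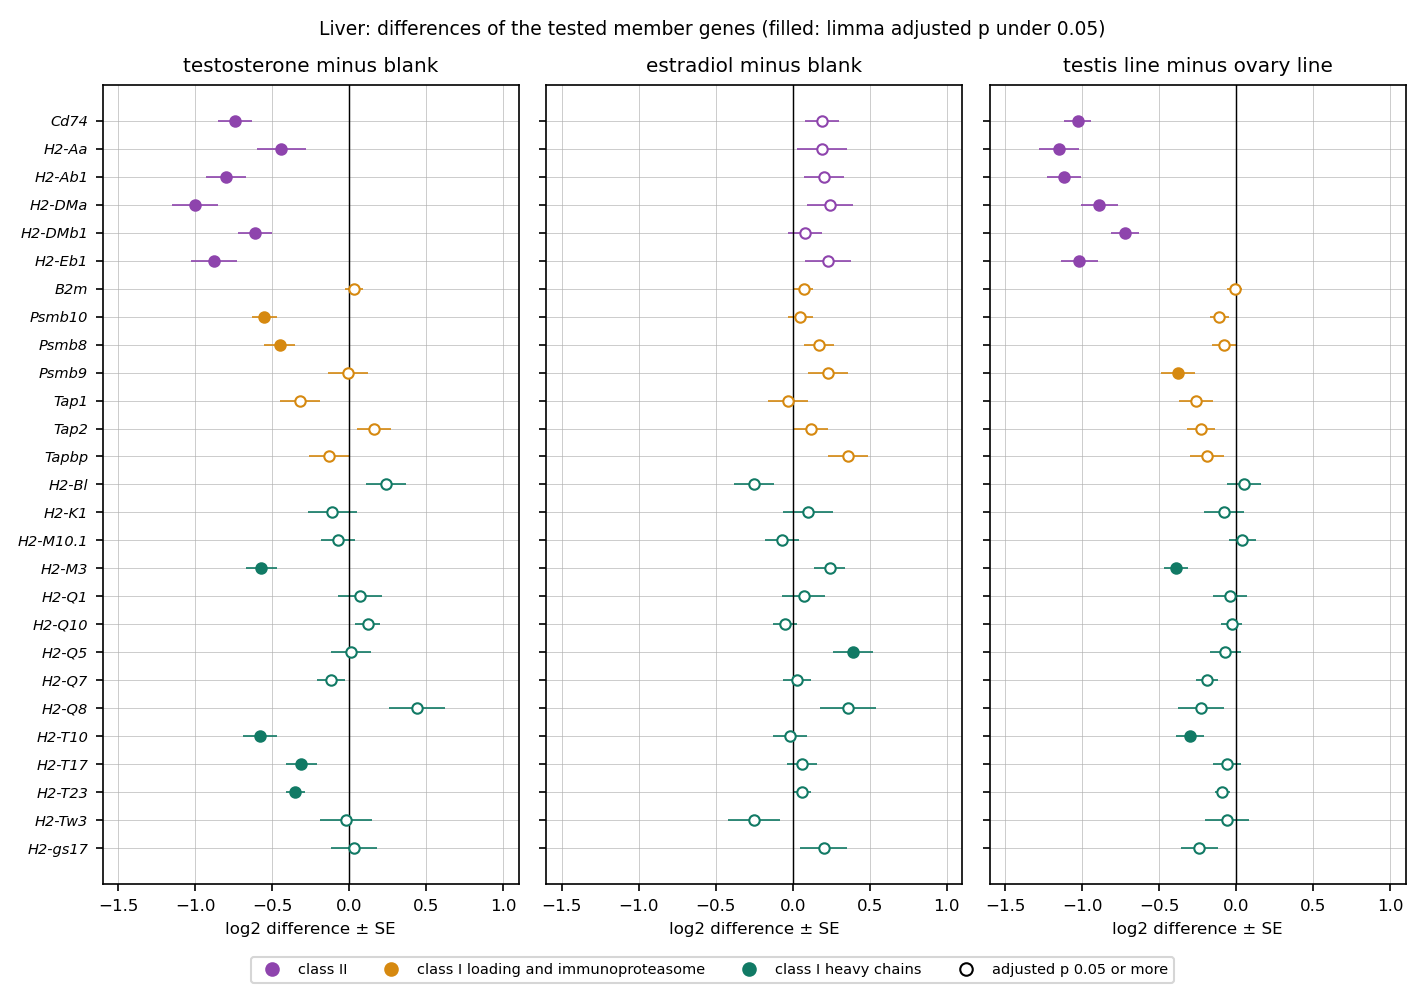
Log2 differences with SE in liver for testosterone minus blank, estradiol minus blank and testis line minus ovary line, 1 probe per member gene; filled points have a limma adjusted p under 0.05. The class II genes lie at -1 to -0.44 for testosterone and -1.15 to -0.72 for the gonad line, and B2m at 0.03 and -0.01.

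B2m, which class I molecules need, ranged over 13.39 to 14.01 on all 60 arrays and was not called in any contrast. Its differences were 0.03 (testosterone), 0.07 (estradiol) and -0.01 (gonad line), each with an SE of at most 0.06, and its second probe had 0.21 with testosterone (limma adjusted p = 0.068). H2-K1, a classical heavy chain, had medians of 6.66, 6.72 and 6.83 under B, T and E in the ovary line and 6.77, 6.49 and 7 in the testis line. Its ranges overlapped in every comparison, and its differences of -0.11, 0.1 and -0.08 were smaller than their SEs. H2-Q10, a secreted class Ib molecule that liver makes, had 9.51, 9.77 and 10.1 in the ovary line under blank and 9.15, 9.62 and 9.91 in the testis line, and differences of 0.12, -0.05 and -0.03.

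Psmb10, a catalytic subunit of the immunoproteasome, had 10.34, 10.69 and 10.86 in the ovary line under blank and 9.96, 10.15 and 10.57 under testosterone. In the testis line it had 10.34, 10.7 and 11.27 and 9.76, 10.02 and 10.38. It fell by 0.55 with testosterone (SE 0.08, limma adjusted p = 2.49e-07), and 8 of 10 and 9 of 10 testosterone arrays lay below the lowest blank array of their line. For the second probe of Psmb10 all 10 did, in both lines. Between the gonad lines Psmb10 differed by -0.11 (limma adjusted p = 0.577), which was not called.

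Psmb8, the second catalytic subunit, was detected on 18 of 20 blank arrays and 8 of 20 testosterone arrays and fell by 0.45 (limma adjusted p = 0.000684). Psmb9, the third, had 6.74, 7.67 and 7.97 in the ovary line under blank and 6.56, 7.04 and 8.04 in the testis line, ranges that overlapped. It was not called for testosterone (-0.01) and was lower in the testis line (-0.38, SE 0.11, limma adjusted p = 0.0361), a call lost without any of 19 single arrays. Tap1, a subunit of the peptide transporter, had medians of 6.62, 6.5 and 6.83 (B, T, E) in the ovary line and 6.44, 6.13 and 6.36 in the testis line. Its difference was -0.32 with testosterone (limma adjusted p = 0.0859) and -0.26 in the testis line (limma adjusted p = 0.272). Neither passed.

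Among the heavy chains H2-M3, which presents formylated peptides of bacteria, had medians of 7.44 under blank and 6.71 under testosterone in the ovary line, and 7.06 and 6.49 in the testis line. It was called in both contrasts, at -0.57 for testosterone (limma adjusted p = 3.93e-05) and -0.39 for the gonad line (limma adjusted p = 0.00174). Over the 60 arrays its r with the macrophage marker mean was 0.74, the highest among the class I genes, and 0.24 after the group means were taken out. With that marker mean as a covariate the gonad line call of H2-M3 was lost (-0.23, limma adjusted p = 0.666). H2-T10 fell by 0.58 with testosterone (limma adjusted p = 9.27e-05), H2-T23, which presents leader peptides of other class I chains, by 0.35 (limma adjusted p = 4.77e-05; the second probe had -0.36), and H2-T17 by 0.31 (limma adjusted p = 0.0278). H2-T10 was also lower in the testis line (-0.3, limma adjusted p = 0.0476), a call lost without any of 38 single arrays. Probes of the H2-Q and H2-T families can hold signal of near-identical relatives, which was not tested.

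Of the 2 class I calls with estradiol, H2-Q5 rose by 0.39 (limma adjusted p = 0.0463), with detection on 11 of 20 estradiol and 5 of 20 blank arrays. The other was 1 of 2 Tapbp probes, at 0.41, while the brighter Tapbp probe had 0.36 (limma adjusted p = 0.0784). Without the 2 arrays that go against their labels H2-Q5 had 0.35 (limma adjusted p = 0.0734), and the class I counts were 1 for estradiol and 1 for the gonad line. No class I probe was called for XX minus XY.

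Other genes of the pathways were also read in liver. Of 7 probes of the class II pathway, 2 were lower with testosterone, the endosomal proteases Ctss (-0.44) and Ctsb (-0.29). Between the lines, 4 were lower in the testis line, with Ctss (-0.66) and the thiol reductase Ifi30 (-0.61 and -0.38 at its 2 probes) the farthest from 0, and Lgmn at -0.41. Lgmn, an asparaginyl protease, was higher with estradiol (0.5), the 1 call there. Ciita, the class II coactivator, was not tested in liver. Of 7 probes of the class I pathway, Nlrc5 (listed as AI451557) was lower with testosterone (-0.44, limma adjusted p = 0.00188) and Pdia3 (listed as Grp58) higher (0.34). Of 17 probes of interferon signalling, the 4 of Irf1 were lower with testosterone (-0.49 to -0.34), and Irf7 was higher with estradiol (0.61) and lower in the testis line (-0.43). Ifng was not detected. Over all liver probes 10.9% were called lower and 8.17% higher with testosterone, 2.85% lower in the testis line and 3.55% higher with estradiol.

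In inguinal fat no class II transcript passed the test for a hormone or the gonad line, and their levels moved with lymph node markers from array to array. None of 13 class II probes was called for testosterone (median -0.4), estradiol (median 0.23) or the gonad line (median -0.02), where 4.75%, 20.5% and 7.34% of all 14636 probes were. Of 26 class I probes 2 were called for estradiol (Tapbp higher and H2-Q10 lower) and none for testosterone or the gonad line. No member was called for an interaction or for XX minus XY (0.0137%, 0.813% and 0.137% of all probes).

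The inguinal fat pad encloses a lymph node. The mean of the T cell, B cell and lymph node stroma and homing markers ranged from 5.33 to 10.25, and 26 of 55 arrays lay more than 1 above its fat median. These were 3 of 8 B, 3 of 9 T and 7 of 10 E arrays in the ovary line and 5 of 9 B, 3 of 10 T and 5 of 9 E in the testis line. All 5 XY- E arrays were among them. The summed level of the B cell markers spanned 9.07 to 14.91, 8.93 to 14.78 and 9.1 to 14.7 (ovary line B, T, E) and 9.39 to 15.3, 8.86 to 14.81 and 9.07 to 14.92 (testis line). The ranges overlapped in all groups, and of these markers Pax5 was not detected. With testosterone none of 16 T cell, 15 B cell and 12 lymph node stroma probes was called, with medians of -0.99, -1.14 and -1.05. All 8 probes of fat cell markers were detected.

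**Figure D4:**
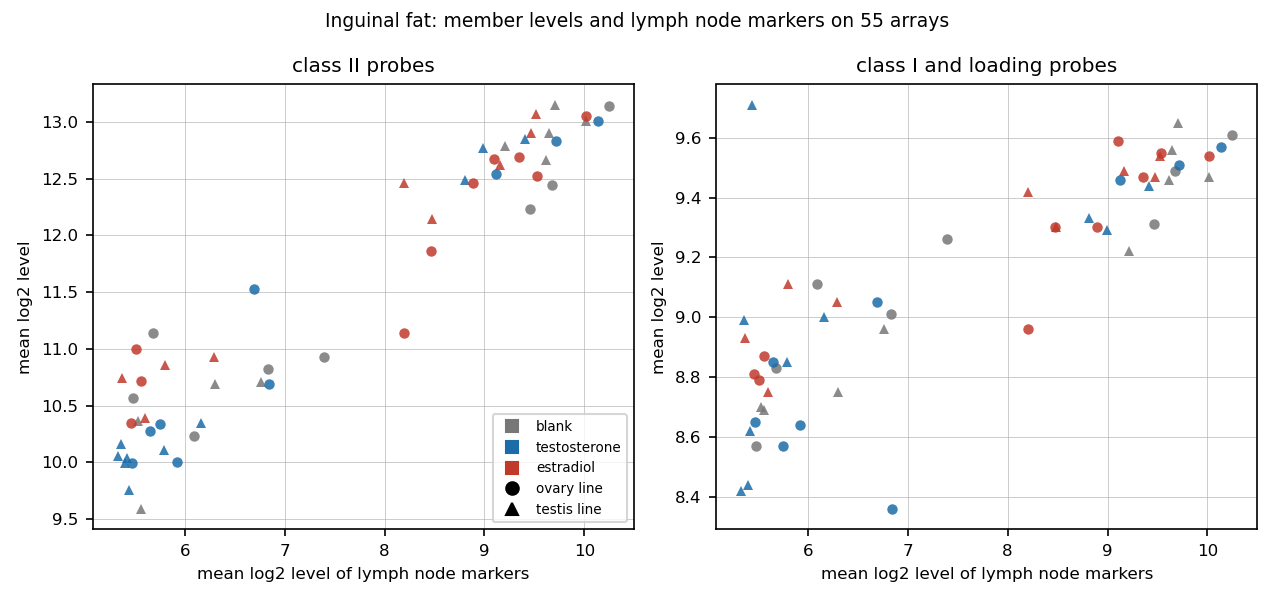
Mean log2 level of the class I and of the class II probes against the mean log2 level of lymph node markers on the 55 fat arrays, coloured by hormone, with circles for the ovary line and triangles for the testis line. The arrays fall into 29 low and 26 high in lymph node markers, and class II follows that split under all 3 capsules.

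The members closest to this marker mean were H2-Oa, H2-Ob, H2-DMb2 and H2-M2. H2-Oa, a chain of the inhibitor H2-O that B cells carry, had 4.93, 6.71 and 11.05 in the ovary line under blank and 4.78, 5.27 and 10.3 in the testis line under testosterone. Each line and hormone held arrays near the detection limit and arrays above 10. Within the 29 arrays low in the markers, r with the marker mean was 0.9 for H2-Oa and H2-Ob, 0.78 for H2-DMb2 and 0.87 for the heavy chain H2-M2. Within the 26 high arrays it was 0.84, 0.89, 0.76 and 0.84. The genes share the RNA of each array with the markers.

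The class II chains that other antigen-presenting cells also make varied less. Cd74 had 12.61, 13.87 and 14.63 in the ovary line under blank, 12.51, 13.57 and 14.76 under testosterone and 13.25, 14.31 and 14.65 under estradiol. The testis-line values were 12.48, 14.54 and 14.98, then 12.33, 13.33 and 14.98, and 13.18, 14 and 14.79. The ranges overlapped throughout, and its differences were -0.26 (testosterone), 0.33 (estradiol) and -0.01 (gonad line), each with an SE of at least 0.21. H2-Ab1 (-0.33, 0.17 and -0.07), H2-Eb1 (-0.4, 0.15 and -0.09), H2-Aa (-0.4, 0.32 and -0.07) and H2-DMa (-0.49, 0.28 and -0.07) were not called either. Within the 29 low arrays their r with the lymph node markers was 0.13 (Cd74) to 0.24 (H2-Eb1), and within the 26 high arrays 0.31 (H2-Aa) to 0.75 (H2-Eb1).

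With the lymph node marker mean as a covariate all 13 class II probes had a positive slope that passed the test (median 0.42), as did 10 of 16 heavy chain probes (median 0.17) and 7 of 10 loading probes (median 0.1). Another 3 heavy chain probes, of H2-Q10 (-0.18), H2-M9 (-0.14) and H2-Tw3 (-0.12), had a negative slope that passed. Slopes of either sign passed at 50.7% of all probes. With the same covariate, 3 class II probes were called higher with estradiol (H2-DMb2 0.51, 1 of 4 H2-Ab1 probes 0.54, 1 of 2 Cd74 probes 0.37), where 27% of all probes were called. For the gonad line 3 were called (H2-DMb2 0.48, H2-Ob 0.32, H2-Oa 0.27), against 10.3% of all probes. For testosterone none was, against 7.09%. The covariate pools T cell and B cell markers, and their balance differed between the lines. Under blank the highest T cell and B cell marker means were 10.31 and 9.94 in the ovary line. In the testis line they were 9.09 and 10.39. H2-DMb2, H2-Ob and H2-Oa each had an r of 0.99 with the B cell markers. Whether this balance enters their gonad line calls was not tested.

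In the 29 arrays low in lymph node markers, fitted over 6 groups of line and hormone, a fit added after the data were seen, Cd74 was higher with estradiol at both probes (0.75, SE 0.24, limma adjusted p = 0.0414, and 0.6, SE 0.2, limma adjusted p = 0.0454). These were the 2 class II calls among 13 (median 0.36), where 13.6% of all probes were called. The counts of low arrays were 5, 6 and 3 (ovary line B, T, E) and 4, 7 and 4 (testis line). The 3 ovary-line E arrays were all XX, while the ovary-line B arrays were XX and XY-. Among those 3 is XX E replicate 1, whose label fields disagree on its treatment. Its Cd74 was 14.25, against 13.63 and 14.12 on the others. For testosterone and the gonad line none of the 13 was called (medians -0.2 and -0.31).

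Markers of macrophages were higher with estradiol in fat at 14 of 15 probes (median 1.11), with Vsig4 at 1.76 and Csf1r at 1.53. Their summed level was 13.03 to 14.74 (B) and 13.99 to 15.33 (E) in the ovary line and 12.34 to 14.66 and 13.96 to 15.35 in the testis line, with Cd5l not detected and Clec4f below the filter. Their part in the class II values under estradiol was not tested. With testosterone 2 of 15 were higher, Cd163 (0.81) and Mrc1 (0.61), against 2.16% of all probes. In the testis line 9 of 10 mammary and epithelial probes were lower (median -2.08), against 4.71% of all probes, and no class I or class II probe was called. The summed level of skeletal muscle markers had medians of 16.18 (B) and 14.21 (E) in the ovary line and 15.72 and 13.35 in the testis line. Their ranges were wide and overlapped, at 12.73 to 16.72, 8.59 to 16.55, 11.56 to 16.46 and 10.87 to 16.6. The part of muscle content in the estradiol differences of the members was not tested.

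Of 9 class II pathway probes 4 were called with estradiol in fat. The proteases Lgmn (1.04), Ctss (0.78) and Ctsb (0.44) were higher, and Rfxap, a subunit of the factor that binds the X box, was lower (-0.34). Of 20 interferon signalling probes 7 were higher, led by Irf7 (1.68, limma adjusted p = 2.78e-07) and Stat2 (1.32, limma adjusted p = 2.92e-07), and 1 of Irf1 was lower (-0.46). Of 7 class I pathway probes 1 was called, the chaperone Pdia3 (listed as Grp58, 0.43). Over all fat probes 10.4% were called higher and 10.1% lower with estradiol.

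H2-Q10 fell with estradiol in fat, where no estradiol array detected it. It had 5.33, 6.48 and 7.61 in the ovary line under blank and 4.56, 4.99 and 5.72 under estradiol, and 4.91, 6.78 and 7.6 and 4.78, 4.97 and 5.57 in the testis line. It was detected on 13 of 17 blank arrays and 0 of 19 estradiol arrays. The difference was -1.44 (SE 0.24, limma adjusted p = 7.01e-06), with -1.43 in the ovary line and -1.44 in the testis line. The group means were 6.49 and 5.08. Since the estradiol level is only a bound, H2-Q10 was at least 1.51-fold lower, taking each estradiol array at the higher of its lowest detected signal and the probe's own. In liver the estradiol difference of H2-Q10 was -0.05.

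**Figure D5:**
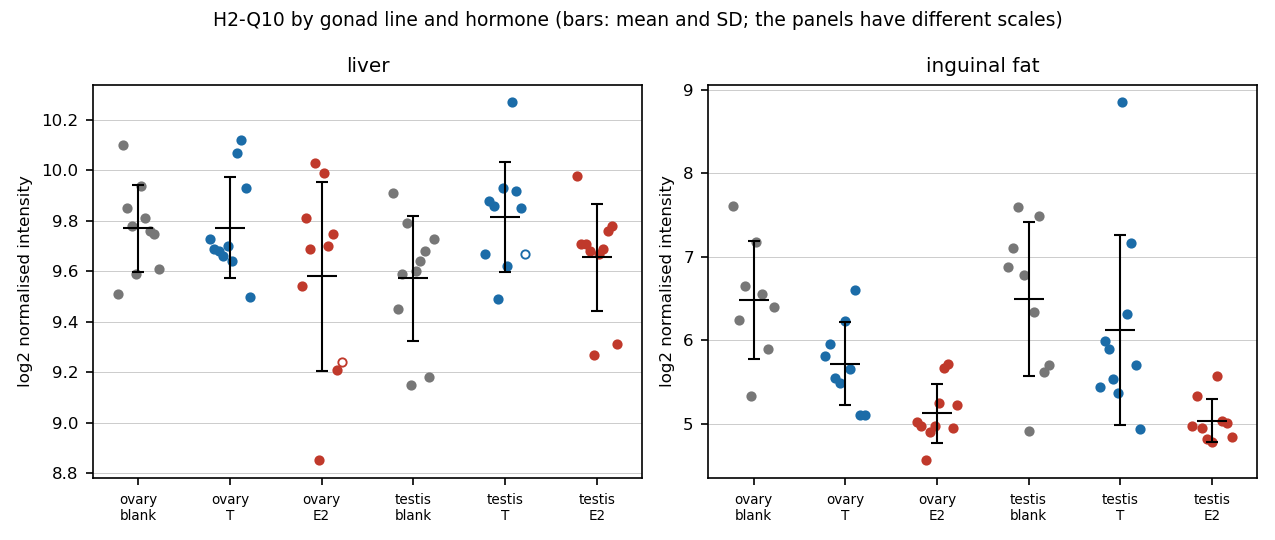
Log2 normalised intensity of H2-Q10 in liver (left) and inguinal fat (right) by gonad line and hormone; points are arrays, bars the mean and SD, open points the 2 liver arrays that go against their labels. In fat the 19 estradiol arrays lie at 4.56 to 5.72 and the 17 blank arrays at 4.91 to 7.61.

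Under testosterone H2-Q10 in fat had 5.1, 5.65 and 6.6 in the ovary line and 4.94, 5.79 and 8.85 in the testis line, and the difference from blank did not pass (-0.59, SE 0.24, limma adjusted p = 0.149). The array at 8.85, XY-Sry T replicate 1, was the highest of all fat arrays in all 6 hepatocyte probes, with their mean at 12.39 against arm medians of 4.98 to 5.9. Without it, or without XXSry B replicate 5, the testosterone difference of H2-Q10 was called, the 1 class I call. It was also called with the lymph node marker mean as a covariate (-0.77, limma adjusted p = 0.0202) and in the 29 arrays low in those markers (-1, limma adjusted p = 0.0473). Over the 55 arrays r of H2-Q10 with the hepatocyte markers was 0.4, and 0.13 over the 54 without this array. On the 2 slides that carried both, the estradiol difference was -1.44 and -0.94. With the lymph node marker mean as a covariate the estradiol difference was -1.46, and in the 29 arrays low in those markers -2.04 (limma adjusted p = 0.000196).

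Tapbp rose by 0.55 with estradiol in fat (SE 0.19, limma adjusted p = 0.0353) at its brighter probe and had -0.13 (limma adjusted p = 0.611) at the other. The 2 probes had an r of 0.18 over the 55 arrays, so the call rests on 1 probe. Without single arrays its adjusted p ran up to 0.107. H2-M3 had 0.48 with estradiol (limma adjusted p = 0.146). With the lymph node covariate it was called (0.52, limma adjusted p = 0.000719), as were both H2-T23 probes (0.52 and 0.42) and H2-gs17 (0.47). In that fit 27% of all probes were called for estradiol. In the 29 low arrays H2-M3 was called again (0.63, limma adjusted p = 0.0272), where 13.6% of all probes were. B2m had 13.81 to 14.62 over all 55 fat arrays, and H2-K1 differed by -0.14, 0.22 and -0.01, none of them called. Psmb8 (-0.31, -0.03 and 0.07), Psmb9 (-0.26, 0.11 and 0.01) and Tap1 (-0.36, 0.01 and 0.09) were not called for testosterone, estradiol or the gonad line, and the ranges of each overlapped in all lines and hormones. Tap1, for example, had 8.12, 9.18 and 10.19 in the ovary line under blank and 7.98, 8.55 and 10.04 under testosterone, and its r with the lymph node markers was 0.2 within the 29 low and 0.64 within the 26 high arrays. Of the 2 H2-named genes that are no MHC molecules, H2-Bf rose (0.57, limma adjusted p = 0.0137) and H2-Ke6 fell by 0.27 (limma adjusted p = 0.00735) with estradiol in fat, and neither was called in liver.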

How the data were processed

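Total RNA of liver (60 arrays) and inguinal fat (55 arrays) was read on Illumina BeadChips with 25697 probes. In the deposited files each probe has 1 mean intensity over its beads per array, per the column names, and the values show no normalization between arrays. They also hold a detection p-value per probe and array, which the authors deposited beside the intensity. The submitters' processing notes name lumi, with its settings not given in the sources used here. The 115 columns of bead standard errors were not used.

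Intensities were corrected with normexp from the detection p-values (offset 16), quantile normalised within each tissue and set to log2 (limma 3.58.1, R 4.3.3). Each tissue was fitted over its 12 groups of genotype and hormone. Contrasts were averaged over the other factors, and p-values were adjusted over all tested probes of a tissue by Benjamini-Hochberg. A probe was called at an adjusted p under 0.05. The fits were also run on simulated data with independent noise at each probe. That simulation held no slide effect and no variation in lymph node content, so it does not bear on either. Marker levels are summed on the linear scale and given as log2.

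A gene was represented by its brightest tested probe. Genes given with levels were H2-K1, H2-Q10, B2m, Tap1, Psmb8, Psmb9, H2-Aa, H2-Ab1, H2-Eb1, Cd74 and H2-DMa, and per contrast and class up to 3 of the largest called differences in each direction. Pathway genes were given as counts with the largest called differences. H2-Bf and H2-Ke6, H2-gs17, the H2-O and H2-DMb genes and H2-M2 were named after their values were seen. The members and gene lists were chosen with earlier results of these data known. The number of arrays limits the precision. The labels do not state that each array is a separate animal, so p-values measure the spread between these arrays. The alternatives were no background correction, median centring, no filter on dim probes, slide as a block, arrays left out one at a time or for their labels, and marker means as covariates. A further alternative took fat XX E replicate 1 as testosterone.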

Additional observations from a re-analysis of the deposited data

Results flagged for a closer look

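The mean log2 level of the class II probes set 1 fat array apart in each of 3 groups, by the distance to its nearest neighbour relative to the range of the group. In fat XY-Sry B, replicate 2 had 9.59 and the other 3 arrays had 12.66 to 13.15. Its lymph node marker mean was 5.56. In fat XY-Sry T, replicate 5 had 12.85 and the others 9.76 to 10.16, and its lymph node marker mean was 9.41. In fat XX T, replicate 1 had 13.01 and the others 9.99 to 10.34, with a lymph node marker mean of 10.14. In all, 46 combinations of a group and a class mean (class I or class II) were looked at in this way, and chance sets apart about 1 in 20.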

How the results depend on the processing

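No called difference changed sign under the alternatives run. The class II counts in liver for testosterone (9 to 10 probes called) and the gonad line (10 each time), and the class I count for testosterone (7 to 10), held without each array in turn. The smaller counts moved. The liver class I count with estradiol, 2, was 1 with no background correction, 0 with median centring, 1 with no filter, 0 with slide as a block, 1 without both arrays that go against their labels and 0 with the macrophage covariate, and 1 to 3 without single arrays (25 of 60 changed it). The liver class I count for the gonad line, 3, was 1 with median centring, 1 with no filter, 6 with slide as a block, 1 without both such arrays and 0 with the macrophage covariate, and 1 to 4 without single arrays. The liver class II count with estradiol, 0, was 3 with slide as a block, 1 without both such arrays and 0 to 1 without single arrays.

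In fat the class I count with estradiol, 2, was 1 with median centring, no filter or slide as a block, 6 with the lymph node covariate and 1 to 3 without single arrays. With the lymph node covariate 27% of all probes were called for estradiol. The class I count for testosterone, 0, was 1 with that covariate, 1 in both fits without the arrays high in lymph node markers, and 0 to 1 without single arrays. The class I count for the gonad line, 0, was 1 with no filter. The class II count with estradiol, 0, was 3 with the covariate and 2 without the arrays high in the markers. The class II count for the gonad line, 0, was 3 with the covariate. The cause of these changes was not tested.

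For single genes 121 alternative values kept their call and 27 lost it, those of H2-Q5, H2-T10, H2-T17, Psmb9, H2-Aa, H2-DMa, H2-M3 and, in fat, Tapbp. H2-T17 had an adjusted p up to 0.056 without XXSry B replicate 5 or XX B replicate 5 of the liver. Leaving out the fat arrays high in lymph node markers emptied XY- E, so over 12 groups the estradiol, gonad line and XX minus XY contrasts and the interaction of estradiol with gonad line could not be fitted. The macrophage covariate and the fit over 6 groups were chosen after seeing the data. The labels carry no replicate numbers to pair arrays across groups, and the block that was fitted was the slide. Dim probes such as H2-Aa, H2-T10 and Psmb8 in liver lay near background, which limits their differences.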

Other observations

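In fat, XY-Sry T replicate 3 combined high class I with low class II levels. Its class I mean of 9.71 was the highest of the 55 fat arrays, while its class II mean of 9.76 was the lowest of its line and hormone and its lymph node marker mean was 5.44. Of the 10 loading and immunoproteasome probes 8, and of the 16 heavy chain probes 6, lay above all other 9 testis-line testosterone arrays, and none of the 13 class II probes did. Tap1 was 10.72 there against 7.72 to 9.79, Tap2 11.58 against 9.66 to 10.67 and Psmb10 12.45 against 10.75 to 11.61. Irf7, an interferon-induced factor, was 11.76 against 7.36 to 9.13, and 10 of 20 interferon signalling probes lay above the other 9 arrays. This array was picked after its values were seen. The share of all fat probes at which it lies above the other 9 was not computed, so these counts have no background to be set against.

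In ovary-line livers under estradiol the split between XX and XY- arrays covered other class II genes. H2-Ab1 had 10.94, 11.41 and 11.63 (lowest, median and highest of 5 arrays) in XX E and 9, 9.95 and 10.55 in XY- E, and H2-Eb1 9.76, 9.94 and 10.47 and 7.7, 8.79 and 9.31. Neither gene overlapped, nor did H2-DMb1 (7.53 to 7.89 and 6.31 to 6.76), while H2-Aa (7.18 to 7.93 and 5.22 to 7.52) and H2-DMa (8.7 to 9.68 and 6.64 to 8.85) did. Under blank the class II means of the same genotypes overlapped, at 8.59 to 9.67 in XX B and 8.5 to 10.09 in XY- B. These groups were compared after their values were seen, with no test. The share of all liver probes that separate in the same way was not computed. XY- E includes replicate 5, which goes against its label.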
